A study of Mus musculus with 4 samples.

Results

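The calcium channel, phospholipase and second-messenger kinase genes were the 44 of the 750 gene probes on the NanoString nCounter Mouse PanCancer Pathways panel whose names begin with Cacn, Pla2g, Plc, Pld, Prkc, Prka, Ppp3, Camk or Calm. They were chosen by name, and no measured value entered the choice. Their RNA was counted in live CD45− cells sorted from subcutaneous B16-OVA melanomas, a transplanted line of the C57BL/6 strain made to express ovalbumin, so all tumors descend from the same cell line. The KO samples (n = 2) came from tumors of C57BL/6 mice with floxed Prdm1, the gene of the transcription factor Blimp1, and a YFP-Cre allele at Foxp3 (Prdm1fl/flFoxP3YFP-Cre). The WT samples (n = 2) came from tumors of C57BL/6 mice with the same YFP-Cre allele and unfloxed Prdm1 (FoxP3YFP-Cre). Both groups received NP-OVA intraperitoneally, in complete adjuvant on day 0 and in incomplete adjuvant on day 7, their tumors measured at most 1.5 cm3, and the mice were 5 to 10 weeks old, a range given in the methods for mice in general. Foxp3 drives the Cre, so Prdm1 is deleted in regulatory T cells, which are CD45+ and were removed by the sort, and the tumor cells carry no deletion in either group. The comparison asks how the sorted tumor fraction differed between hosts with and without Blimp1 in Foxp3+ cells.

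Receptors and voltage-gated channels turn outside stimuli into small diffusible signals, above all calcium, cyclic AMP, diacylglycerol and free fatty acids. Phospholipases cut these lipid signals out of the membrane, and a small set of enzymes reads them. Protein kinase C (PKC) reads calcium and diacylglycerol, protein kinase A (PKA) reads cyclic AMP, and calcineurin and the CaM kinases read calcium bound to calmodulin. In melanocytes and melanoma cells cyclic AMP and PKA are best known for driving the pigment program downstream of the melanocortin receptor.

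The 750 gene probes held 630757 and 676313 counts in the KO samples, against 692284 and 626056 in the WT samples, and the 44 genes took 1.50% and 1.52% of them in the KO samples, against 1.62% and 1.58% in the WT samples. A probe counted as above background in a sample when its count exceeded the mean plus 2 SD of the 8 negative control probes there, which was 21.9 and 19.9 counts in the KO samples and 17.5 and 17.9 counts in the WT samples. Scaled counts below are counts brought to a common level of the 20 housekeeping probes, by sample factors of 0.935 to 1.06. The samples did not pair off by genotype, since KO 2 stood apart with log2 correlations of 0.975 to 0.981 with the other samples, while KO 1 correlated at 0.993 with WT 1. KO 2 had the lowest scaled count of the 4 samples for 194 of the 446 probes tested, and the fold changes that rest on it are given without it. Prdm1 itself was below background in every sample, at 9 and 6 counts in the KO samples and 9 and 9 counts in the WT samples, which does not check the genotype because the deleted cells were sorted out. Among the genes that mark cell types, Pax3, Kit and Met of the melanocyte lineage were above background, Lef1 was not, and both endothelial receptors (Kdr and Flt1) were below background in every sample.

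Of the 44 genes, 23 exceeded background in 2 or more samples and were tested, against 59.5% of the 750 gene probes. Of these, 21 were above background in all 4 samples, and the remaining 2 (Pla2g4f and Plce1) in 2 samples. A further 20 genes were above background in no sample, with counts between 1 and 16, and Pla2g3 was above it only in KO 2. The tested share varied widely between the name groups. Most PKA and AMPK (5 of 6) and calcineurin (4 of 5) genes were above background, as were 3 of 4 phospholipases C, while only 4 of 15 calcium channel subunits and 3 of 8 phospholipases A2 were. Phospholipase D1 and CaM kinase II beta, the single members of their groups, were above background, and the single calmodulin-type gene was not. Each gene has 1 probe bound by 1 barcode, so counts do not grow with transcript length, but probes can differ in how well they capture their RNA, and levels of different genes are compared here on that understanding.

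**Figure D1:**
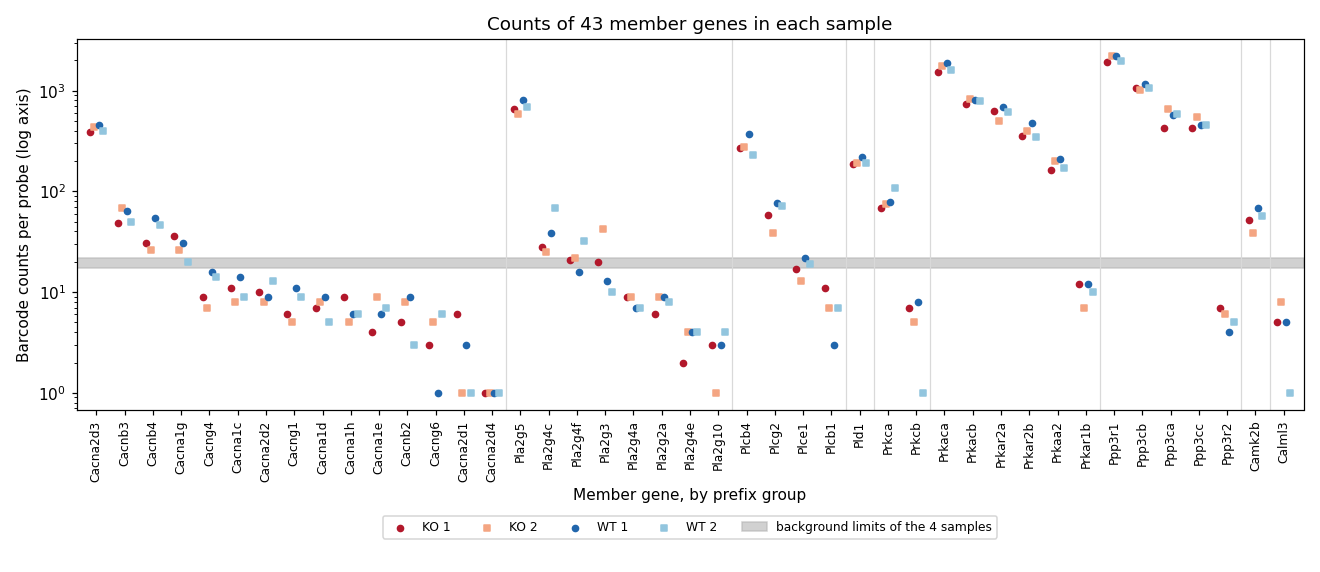
Barcode counts per probe on a log axis for 43 of the 44 genes, ordered by name group and, within each group, by mean level, with KO samples in red and WT samples in blue. The grey band spans the background limits of the 4 samples (17.5 to 21.9 counts). Ppp3r1, Prkaca and Ppp3cb sit highest, and 20 genes lie under the band in every sample.

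Voltage-gated calcium channels consist of a pore subunit and of alpha2delta, beta and, in some tissues, gamma subunits that modify it. Cacna2d3, an alpha2delta subunit that helps to carry channels to the cell surface, was the highest of the 15 channel genes, with scaled counts of 418 and 416 in the KO samples and 428 and 414 in the WT samples. The samples lay within a few percent of each other, and the log2 fold change of KO over WT was -0.01 (95% interval -0.26 to 0.23). Cacna2d3 held 77.1% ± 1.34 (SD, n = 4 samples) of the summed counts of the 4 detected channel genes. The only pore subunit above background was Cacna1g, a low-voltage-activated T-type channel, with scaled counts of 38.5 and 24.7 in the KO samples and 29.3 and 20.8 in the WT samples, close to background and overlapping between groups. Its T-type paralog Cacna1h, the L-type pores Cacna1c and Cacna1d and the R-type pore Cacna1e stayed at or under 14 counts in every sample. The other alpha2delta genes (Cacna2d1, Cacna2d2 and Cacna2d4) were also below background, Cacna2d4 with 1 count in each sample, as were the gamma genes Cacng1, Cacng4 and Cacng6. Cacng1, the gamma subunit of the skeletal muscle channel and the only muscle marker among the genes listed here, had 6 and 5 counts in the KO samples and 11 and 9 in the WT samples.

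The beta subunits, which bind the pore from the cytosolic side, gave the channel gene with the largest difference. Cacnb4 had scaled counts of 33.1 and 24.7 in the KO samples, against 51.0 and 47.9 in the WT samples. Both KO samples were below both WT samples, with a log2 fold change of -0.78 (SE 0.29, 95% interval -1.49 to -0.06). In edgeR the unadjusted p was 0.0372 and the p adjusted over all 446 tested genes was 0.569, so the difference did not pass the threshold. Over 13 alternative settings the log2 fold change of Cacnb4 stayed between -0.996 (without KO 1) and -0.58 (without KO 2). Where each group kept 2 samples, its adjusted p lay between 0.432 (edgeR with the replicate number as a block) and 0.942 (DESeq2). Cacnb3 had scaled counts of 52.4 and 64.7 in the KO samples and 60.5 and 52.0 in the WT samples, with overlapping groups. The ratio of Cacnb3 to Cacnb4 was thus 1.58 and 2.62 in the KO samples, against 1.19 and 1.09 in the WT samples. Cacnb2 was below background throughout.

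Phospholipases A2 release fatty acids such as arachidonic acid, the precursor of prostaglandins and leukotrienes, from membrane lipids. Here the secreted enzyme Pla2g5 stood far above the other 7 genes of the group, with scaled counts of 705 and 554 in the KO samples, against 765 and 715 in the WT samples. Both KO samples were below both WT samples, by a log2 fold change of -0.23 (95% interval -0.58 to 0.12, edgeR adjusted p = 0.651). KO 2 was the lowest, and the log2 fold change was -0.07 without it and -0.42 without KO 1. Pla2g5 held 91.6% ± 2.98 (SD, n = 4 samples) of the counts of the 3 detected phospholipases A2, with the lowest share, 87.2%, in WT 2. The other secreted enzymes Pla2g2a and Pla2g10 were below background everywhere. Pla2g3, also secreted, had 20 and 42 counts in the KO samples and 13 and 10 counts in the WT samples, and only the 42 counts of KO 2 exceeded the limit, so it was not tested.

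The cytosolic phospholipases A2 were low. Pla2g4c, the gamma form, which in humans is independent of calcium and anchored to membranes by a lipid, had scaled counts of 29.9 and 23.8 in the KO samples and 36.8 and 71.8 in the WT samples. Both KO samples were below both WT samples, but WT 1 lay closer to the KO samples than to WT 2. The log2 fold change was -1.01 (SE 0.41, 95% interval -2.00 to -0.02), the most negative of the 23, with an unadjusted p of 0.0463 and an adjusted p of 0.569 in edgeR. It was -0.46 without WT 2 and -1.42 without WT 1. Pla2g4f had scaled counts of 22.5 and 20.9 in the KO samples and 15.1 and 33.3 in the WT samples, again with the highest value in WT 2. Pla2g4a, the enzyme best known for arachidonic acid release, and Pla2g4e were below background in every sample, with at most 9 counts.

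WT 2 was also the sample with most collagen RNA. Col1a1 had scaled counts of 57.7 and 12.4 in the KO samples and 28.3 and 112 in the WT samples, and Col3a1 had 88.7 and 16.2 in the KO samples and 68.0 and 162 in the WT samples. Of the 9 fibroblast and pericyte genes listed on the panel, 6 were above background and 3 (Col6a6, Pdgfra and Comp) were below it in every sample. The 9 had summed scaled counts of 1278 and 1127 in the KO samples, against 875 and 1598 in the WT samples. Fn1 alone had 985 and 962 in the KO samples and 610 and 1139 in the WT samples. It made up most of each sum, and the sums followed its order over the samples. In such mixed RNA, fewer cells of a type and less RNA per cell cannot be told apart. The part of these cells in the values of Pla2g4c, Pla2g4f and Prkca, all highest in WT 2, was not tested.

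Phospholipases C cleave phosphatidylinositol bisphosphate into inositol trisphosphate, which releases stored calcium, and diacylglycerol, which recruits PKC. The beta form Plcb4, switched on by G proteins of the Gq class, led the group with scaled counts of 285 and 265 in the KO samples and 354 and 238 in the WT samples. The WT samples enclosed both KO samples, and the log2 fold change was -0.11 (95% interval -0.60 to 0.38), turning to 0.21 without WT 1. Plcb4 held 78.3% ± 5.11 (SD, n = 4 samples) of the counts of the 3 detected phospholipases C, while its paralog Plcb1 stayed below background. Gnaq and Gna11, the Gq-class subunits that act on the beta forms, were both well above background, Gnaq with scaled counts of 493 and 493 in the KO samples and 548 and 638 in the WT samples. Plce1, the form controlled by Ras-family proteins, had scaled counts of 18.2 and 12.4 in the KO samples and 20.8 and 19.8 in the WT samples, and only the WT samples exceeded background. It was therefore tested only through the group in which it was higher, and its log2 fold change of -0.42 (95% interval -1.22 to 0.39), which was -0.71 without KO 1 and -0.16 without KO 2, is given as a description.

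Plcg2, the gamma form activated by tyrosine kinases in B cells and myeloid cells, had scaled counts of 62.0 and 37.1 in the KO samples, against 72.7 and 73.9 in the WT samples. The WT samples were nearly equal, and KO 2 was clearly the lowest. The log2 fold change was -0.57 (SE 0.32, 95% interval -1.35 to 0.21, edgeR adjusted p = 0.638). It was -0.24 without KO 2 and -0.98 without KO 1, so KO 2 set much of its size. Among the 10 other leukocyte genes listed on the panel, 7 (among them Csf1r and Il7r) were below background in every sample, though none had 0 counts in all samples, and 2 were tested. Those 2 were Pik3cd, the phosphoinositide kinase of leukocytes, with scaled counts of 49.2 and 40.0 in the KO samples and 57.6 and 78.0 in the WT samples, and Jak3. The 10 had summed scaled counts of 153 and 143 in the KO samples, against 169 and 190 in the WT samples, and their part in the Plcg2 values was not tested. Pld1, which makes phosphatidic acid from phosphatidylcholine, had scaled counts of 200 and 184 in the KO samples and 207 and 199 in the WT samples, with overlapping groups and a log2 fold change of -0.08 (95% interval -0.43 to 0.27).

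Conventional PKC enzymes need both calcium and diacylglycerol. Prkca, the widely expressed alpha form, had scaled counts of 72.7 and 71.4 in the KO samples and 73.7 and 111 in the WT samples. KO 1, KO 2 and WT 1 were nearly equal and WT 2 was high, so that the log2 fold change of -0.36 (95% interval -1.06 to 0.35, edgeR adjusted p = 0.686) was -0.03 without WT 2. Prkcb, the beta form of B cells and other leukocytes, had at most 8 counts and was below background in every sample.

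PKA is a tetramer of catalytic subunits held inactive by regulatory subunits until cyclic AMP binds. The catalytic genes Prkaca and Prkacb were among the highest of the 44, Prkaca with scaled counts of 1635 and 1691 in the KO samples and 1768 and 1679 in the WT samples, and Prkacb at 784 and 794 in the KO samples and 760 and 828 in the WT samples. Neither separated the groups, with log2 fold changes of -0.05 (95% interval -0.30 to 0.20) and -0.01 (95% interval -0.27 to 0.25). Prkaca made up 68.1% ± 1.27 (SD, n = 4 samples) of the summed counts of Prkaca and Prkacb. Of the regulatory genes, the type II alpha gene Prkar2a had scaled counts of 671 and 480 in the KO samples and 654 and 642 in the WT samples, and the type II beta gene Prkar2b had 381 and 377 in the KO samples and 451 and 360 in the WT samples. KO 2 was the lowest for Prkar2a, by a wide gap from 3 nearly equal samples. The log2 fold change of Prkar2a was -0.17 (95% interval -0.59 to 0.24) over all samples, 0.05 without KO 2 and -0.43 without KO 1. The ratio of the summed Prkaca and Prkacb counts to those of Prkar2a and Prkar2b was accordingly 2.30 and 2.90 in the KO samples. It was 2.29 and 2.50 in the WT samples, and thus highest in KO 2. Prkar1b, the type I beta gene known from neurons and the only type I regulatory gene among the 44, was below background in every sample. Prkaa2 shares the prefix but encodes a catalytic subunit of the energy sensor AMPK, and it had scaled counts of 175 and 190 in the KO samples and 198 and 179 in the WT samples, with overlapping groups.

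Calcineurin, the phosphatase that sends NFAT factors into the nucleus, pairs a catalytic A subunit with a calcium-binding B subunit. The B gene Ppp3r1 had the highest level of all 44, with scaled counts of 2059 and 2082 in the KO samples and 2101 and 2033 in the WT samples. Its samples agreed within a few percent, and its log2 fold change was 0.00 (95% interval -0.24 to 0.24). The other B gene, Ppp3r2, known from testis, had 7 and 6 counts in the KO samples and 4 and 5 counts in the WT samples, below background in each. This pair encodes the same subunit, 1 gene at the top of the 44 and the other near the bottom, and the promoters are printed to show how they differ in CpG dinucleotides, the sites of DNA methylation in mammals. Both are from RefSeq on GRCm38.p6, 250 bases before to 50 bases after the transcription start, read 5′ to 3′ on the gene's strand, with every CG in capitals.
Ppp3r1, chr11:17159048-17159347, plus strand: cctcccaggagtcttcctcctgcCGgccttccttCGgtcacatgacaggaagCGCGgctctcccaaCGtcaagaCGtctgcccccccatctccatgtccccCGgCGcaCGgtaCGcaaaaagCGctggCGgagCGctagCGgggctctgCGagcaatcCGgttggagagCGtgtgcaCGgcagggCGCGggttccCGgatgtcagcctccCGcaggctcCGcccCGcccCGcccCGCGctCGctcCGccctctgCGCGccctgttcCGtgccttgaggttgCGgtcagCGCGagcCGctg
Ppp3r2, chr4:49681934-49682233, minus strand: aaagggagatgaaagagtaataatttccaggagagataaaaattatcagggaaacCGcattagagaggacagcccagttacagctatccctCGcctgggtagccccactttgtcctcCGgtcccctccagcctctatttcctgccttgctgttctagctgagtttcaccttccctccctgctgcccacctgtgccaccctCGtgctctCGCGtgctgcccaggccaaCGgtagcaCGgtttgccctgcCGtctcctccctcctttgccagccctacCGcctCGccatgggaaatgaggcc
The Ppp3r1 promoter held 36 CG and a GC content of 70.7%, and the Ppp3r2 promoter held 11 CG and a GC content of 57.0%. Of 32851 RefSeq promoters of the same length, 6.23% held at least 36 and 41.4% at least 11. Methylation was not measured here, and promoters were listed for only 33 of the 44 genes (75%), so CpG content was not compared over the whole set.

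Each catalytic calcineurin gene was above background in all samples. Ppp3cb, the beta form, led with scaled counts of 1128 and 957 in the KO samples and 1107 and 1099 in the WT samples, and made up 51.0% ± 4.22 (SD, n = 4 samples) of the catalytic counts. Ppp3ca, the alpha form, had scaled counts of 458 and 622 in the KO samples and 546 and 613 in the WT samples, and Ppp3cc, the gamma form, had 457 and 523 in the KO samples and 429 and 479 in the WT samples. The groups overlapped for all of them, and KO 1 and KO 2 differed more from each other in Ppp3ca than the WT samples did. The log2 fold change of Ppp3ca was -0.10 over all samples, 0.10 without KO 1 and -0.34 without KO 2, so its sign depended on which KO sample was kept. The 3 catalytic genes together summed to about the level of Ppp3r1, with a ratio of Ppp3r1 to their sum of 1.01 and 0.99 in the KO samples and 1.01 and 0.93 in the WT samples.

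**Figure D2:**
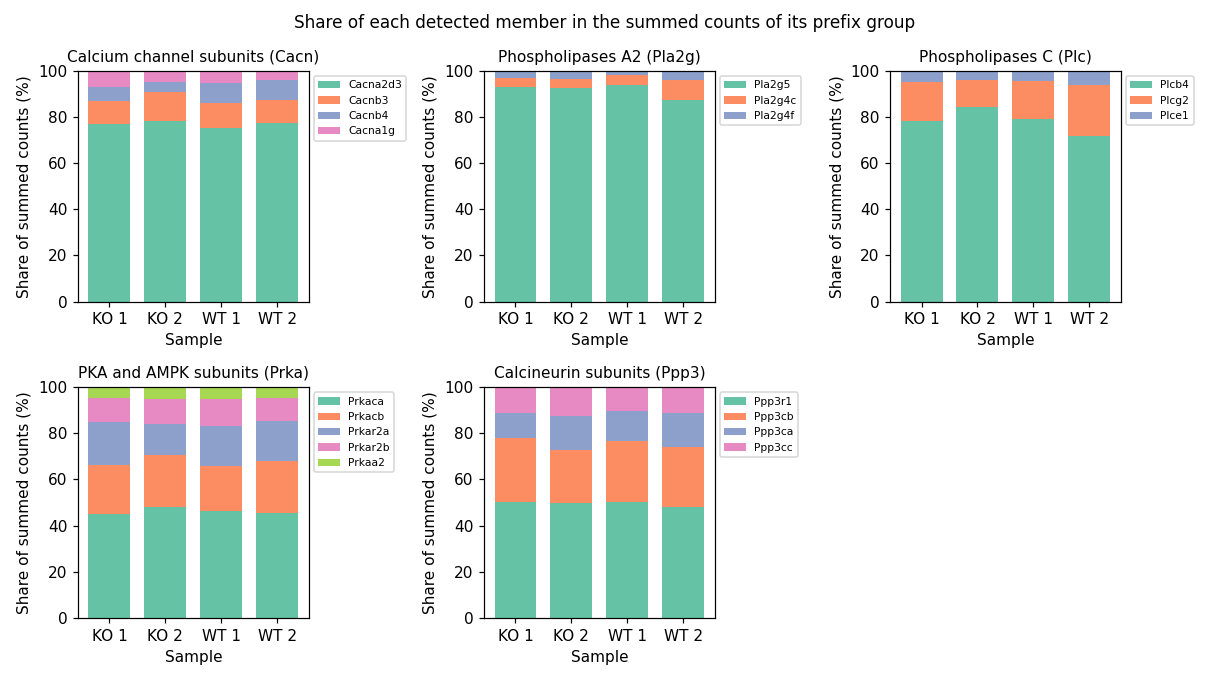
Share of each gene above background in the summed counts of its name group, in percent, in 5 groups, for the KO samples and then the WT samples. Cacna2d3, Pla2g5 and Plcb4 hold most of their groups in all samples, and WT 2 has the lowest shares of Pla2g5 (87.2%) and Plcb4 (71.8%).

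CaM kinase II is switched on by calcium and calmodulin, and Camk2b, its beta form known mainly from brain, was the only gene with this prefix. It had scaled counts of 55.6 and 37.1 in the KO samples and 65.2 and 59.3 in the WT samples. Both KO samples were below both WT samples, with a log2 fold change of -0.43 (SE 0.30, 95% interval -1.17 to 0.31, edgeR adjusted p = 0.664), which was -0.16 without KO 2 and -0.74 without KO 1. Camk2b was above background together with Mapt, the microtubule protein tau, with scaled counts of 105 and 85.7 in the KO samples and 152 and 145 in the WT samples. The neurotrophin receptor gene Ntrk2 was below background in every sample, and the part of neuronal cells in the Camk2b values was not tested. Calml3, a calmodulin-like gene of epithelia, had at most 8 counts and was below background.

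**Figure D3:**
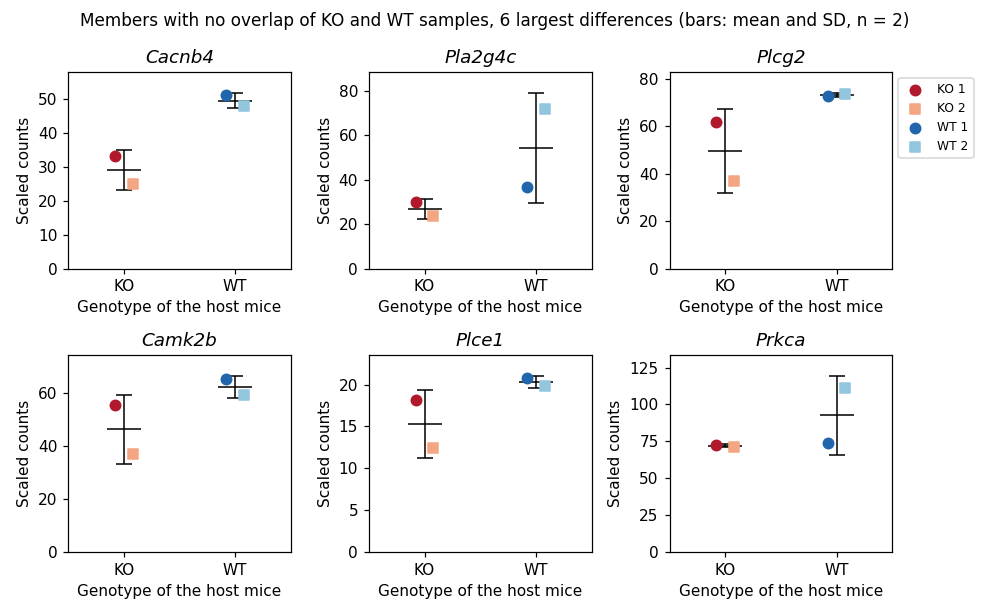
Scaled counts of Cacnb4, Pla2g4c, Plcg2, Camk2b, Plce1 and Prkca in each KO and WT sample, each panel on its own axis from 0, with the mean and SD of each group (n = 2). These genes were chosen because their groups did not overlap, and in each the KO samples are the lower ones. KO 2 is the lowest sample in each panel, and WT 2 stands well above the other samples in Pla2g4c and Prkca.

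Over all 23 tested genes, 19 were lower and 4 higher in the KO samples, with log2 fold changes from -1.01 to 0.32 and their median at -0.10, beside 66.8% lower and a median of -0.08 over all 446 tested genes. Leaving out 1 sample turned the sign of 13 of the 23. No gene passed an adjusted p of 0.05, as for the whole panel (0%), and the lowest adjusted p among the 23 was 0.569. At an unadjusted p under 0.05 in edgeR, 2 of the 23 (Cacnb4 and Pla2g4c) were lower and 0 higher, where 4.48% of the tested genes were lower and 2.91% higher. DESeq2 gave 0 of the 23 at an unadjusted p under 0.05. Both KO samples were below both WT samples for 7 of the 23 (30.4%, Plce1 included), which is close to the 31.4% of all tested genes, and above them for 0, beside 11.2% of all tested genes. With 2 samples a group an exact two-sided permutation test of a single gene cannot give a p under 0.333. The direction depended on the scaling: with factors from the positive control probes 14 of the 23 were higher in the KO samples and the median was 0.03, while that of all tested genes was 0.05, and with TMM factors 8 were higher. Over the whole panel, 20 of the 33 genes at an unadjusted p under 0.05 were lower in the KO samples with the housekeeping factors, while 22 of 32 were higher with TMM factors.

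**Figure D4:**
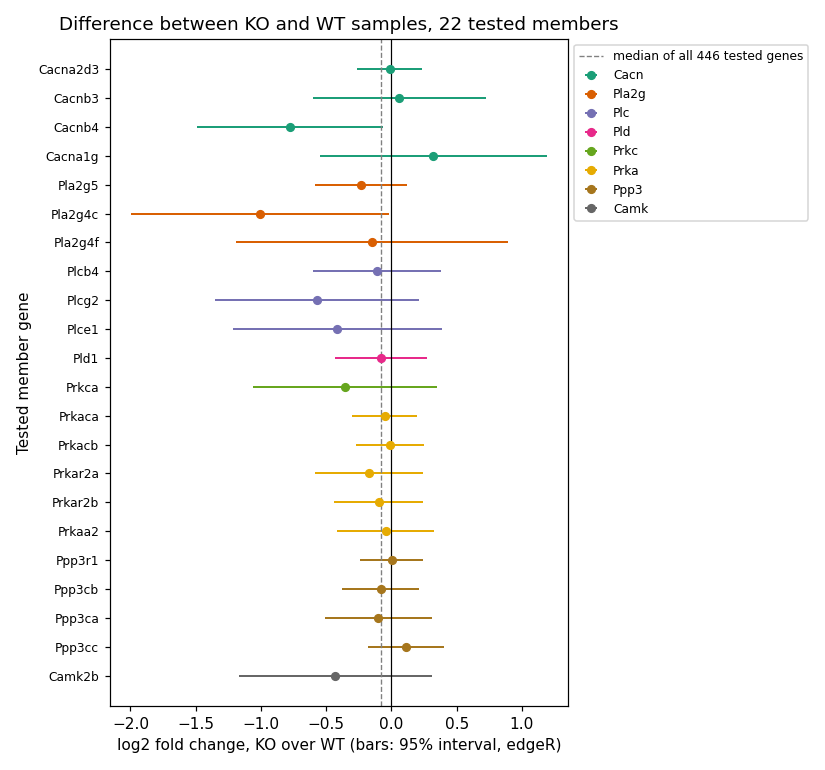
Log2 fold change of KO over WT with its 95% interval from edgeR for 22 of the 23 tested genes, coloured by name group, with a dashed line at the median of all 446 tested genes (-0.08). The intervals of Cacnb4 and Pla2g4c end just below 0 before adjustment, and those of the other genes shown include 0.

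The differences were larger among low genes, where the intervals were also wider. This split by level was made after the values were seen. The 14 genes with a mean of at least 100 scaled counts had log2 fold changes between -0.23 and 0.11, and the KO samples were below the WT samples for 1 of them, where 32.0% of the 344 such genes of the panel were. The 9 genes with a lower mean ranged between -1.01 and 0.32, and the KO samples were below the WT samples for 6 of them, where 29.4% of the 102 such genes of the panel were. One of the 6 is Plce1, which passed the filter only through the WT samples. Among the 7 low genes above background in all 4 samples, the KO samples were below the WT samples for 5, where 31.9% of the 72 such genes of the panel were. These counts used the housekeeping factors. Over all 23 tested genes the KO samples were below for 5 with TMM factors (17.9% of the panel) and for 2 with positive control factors (7.62% of the panel). The half-width of the 95% interval was 0.24 to 0.49 in the higher genes and 0.66 to 1.04 in the lower ones. A difference smaller than its half-width could not be told from 0, even before adjustment. Cacnb4 and Pla2g4c exceeded their half-widths and still had an adjusted p of 0.569 in edgeR.

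Among 24 other panel genes listed with calcium, diacylglycerol, cyclic AMP or AMPK signaling, 17 were tested and 1 was at an unadjusted p under 0.05 in edgeR. Of the 7 G protein subunits listed, 5 were tested, 4 lower and 1 higher, none at an unadjusted p under 0.05, led by Gnas, the stimulatory subunit upstream of cyclic AMP, with scaled counts of 6168 and 6282 in the KO samples and 6595 and 6740 in the WT samples. Of the 4 exchange factors for Ras and Rap that respond to calcium, diacylglycerol or cyclic AMP, Rasgrp2 was the only one above background. Of the 9 transcription factors and coactivators placed on the calcium and cyclic AMP list, Creb3l genes included, 7 were tested, 2 higher and 5 lower. One of them, the nuclear receptor Nr4a3, had scaled counts of 845 and 768 in the KO samples and 1161 and 1119 in the WT samples, with an unadjusted p of 0.00366 and an adjusted p of 0.415 in edgeR. Its paralog Nr4a1 had 680 and 1658 in the KO samples and 751 and 756 in the WT samples, high only in KO 2. Nfatc1, the calcineurin target on the panel, was low and overlapping, at 51.3 and 50.4 in the KO samples and 58.6 and 48.9 in the WT samples. The AMPK pathway genes Stk11, Tsc1, Tsc2 and Mtor were all tested and all lower, as were 66.8% of the tested genes, none at an unadjusted p under 0.05, and their median log2 fold change was -0.13.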

How the data were processed

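Total RNA (100 ng per sample) of sorted CD45− cells was run by the authors on the nCounter panel and read on an nCounter Flex system. The authors deposited raw barcode counts for 750 gene, 20 housekeeping, 8 negative control and 6 positive control probes in 4 samples, with no normalization. A second deposited table held scaled signal, namely the same counts times a sample factor of 0.877 to 0.986 with a floor under the low values. The sources used here do not say how these factors were set, and the signal served only as an alternative. Groups came from the labels, and no label states that each sample is from a separate mouse, so p-values measure the spread between these samples, which may be technical. No pair of samples agreed within counting noise (chi-square per degree of freedom at least 12.8).

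The count test was the quasi-likelihood test of edgeR 4.0.16 (glmQLFit, glmQLFTest) in R 4.3.3 with genotype as the only term and the geometric mean of the 20 housekeeping probes as the scaling factor. The test covered the 446 probes above the negative control mean plus 2 SD in at least 2 samples. It was two-sided, and p-values were adjusted over all 446 (Benjamini-Hochberg). Intervals are at 95%, with 2 residual degrees of freedom among samples plus those borrowed across genes. The code was tested on simulated counts. Genes were named with a fold change by rule where the unadjusted p was under 0.05 or the groups did not overlap with a fold past a set size, and with levels where they were among the 3 highest of their name group, and other genes named were picked with their values in view. The genes, lists and tests were chosen with earlier results of these data known. Lists of related genes and cell type markers are described by counts only. The alternatives covered scaling by TMM, by DESeq2 size factors or by positive controls, other filters, background subtraction, the deposited signal in limma 3.58.1 (log2, pseudocount of 1), DESeq2 1.42.0, an unequal-variance test, the replicate number as a block and leaving out each sample. Promoters came from RefSeq (GRCm38.p6), where 43 of the 44 probe targets were found by accession. The files name no genome build. The values of 1 of the 44 genes are not reported here, though it is included in the counts over the genes.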

Additional observations from a re-analysis of the deposited data

How the results depend on the processing

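The log2 fold changes of Cacnb4, Pla2g4c, Plcg2, Camk2b, Plce1 and Prkca stayed negative under each alternative that could be run on them. Where each group kept 2 samples, their adjusted p stayed above 0.05. In these genes both KO samples lay below both WT samples, which was part of the rule that named them. Leaving out 1 sample therefore could not turn their sign. Plce1 passed the filter only through the WT samples. Of all 23 tested genes, 13 turned in sign when 1 sample or another was left out, among them Cacna2d3, Plcb4, Ppp3ca and Prkar2a. Of the 23 genes, 2 were at an unadjusted p under 0.05. That count was 0 with TMM factors, DESeq2 size factors, background subtraction, DESeq2 and the unequal-variance test. It was 1 with positive control factors or the deposited signal. With a minimum mean count of 50 it was also 0, but that filter removed Cacnb4 and Pla2g4c before testing, so neither was retested there. Without the filter on low counts it was 2, but these were Pla2g4c and, above background only in KO 2, Pla2g3 at a log2 fold change of 1.43 (unadjusted p = 0.0161, adjusted p = 0.515). The median log2 fold change of the 23 was -0.014 with TMM factors, -0.020 with DESeq2 size factors and 0.026 with positive control factors. In the next counts the shares over all tested genes are in brackets. KO samples lay below WT samples for 2 genes with positive control factors (7.62%) and for 4 of 18 with a minimum mean count of 50 (32.2%), against 7 (31.4%). They lay below for 6 of the 21 genes above background in all 4 samples (32.0% of all such genes), a filter chosen after seeing the data. They lay above for 2 with TMM (18.2%), DESeq2 (18.2%) or positive control factors (23.3%), against 0 (11.2%). Without the filter they lay above for 4 of 44 (14.7%). Over the whole panel, adjusted calls were 0, but 1 with the replicate block, 3 with DESeq2 and 0 to 20 leaving out 1 sample (20 without KO 1). Genes at an unadjusted p under 0.05 were 33, but 52 without the filter, 14 with the unequal-variance test and 12 to 105 leaving out 1 sample (105 without KO 1, 12 without WT 2). Of these, 22 of 32 were higher in KO samples with TMM and 25 of 28 with positive control factors, against 13 of 33. With the replicate block 2 of the 23 were at an unadjusted p under 0.05, and deviations of same-numbered samples correlated at 0.040, so the numbers were not taken as pairs. In a fit without 1 sample its group had 1 sample left, so no spread of that group entered the p-values counted there. Counting error weighs more in genes with low counts, and its part in the spread between the samples was not tested.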
